A study of Mus musculus with 118 samples.

Results

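Of the 18643 RING1B peaks in mouse embryonic stem cells (ESCs), 999 overlapped a SUZ12 peak by at least 1 bp, overlapped no PCGF2 peak, and lay away from every annotated promoter. A promoter was the transcription start site (TSS) of a curated RefSeq transcript plus or minus 2500 bp. These 999 sites made up 5.36% of all RING1B peaks (95% Wilson interval 5.04 to 5.69) and 28.3% of the 3534 RING1B peaks with SUZ12 and without PCGF2 (26.8 to 29.8). They were chosen by the positions of the 3 peak lists and of the TSSs, so their overlap with SUZ12, their lack of PCGF2 and their distance from promoters are how they were defined, and are given below as descriptions. The classes of RING1B peaks set beside them were the 516 non-promoter peaks with both SUZ12 and PCGF2, the 2535 promoter peaks with SUZ12 and without PCGF2, and the 5046 non-promoter peaks with neither.

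The peaks came from calibrated ChIP-seq (cChIP-seq), in which human HEK293T cells, an embryonic kidney line, are mixed in as an internal standard. All groups used here were untreated ESCs of strain E14. The PRC1CPM line gave 3 samples each for RING1B, SUZ12 and PCGF2, with the genotype Ring1a I50A/D53K; Ring1b (WT to I53A/D56K) fl/fl; Rosa26::ERT2-Cre. The PRC1CKO line gave 3 more for SUZ12, with the genotype Ring1a-/-; Ring1b fl/fl; Rosa26::ERT2-Cre. Both lines carry the tamoxifen-activated Cre, which was not induced here. RING1A was therefore already catalytically mutant in PRC1CPM cells and absent in PRC1CKO cells before any treatment, and each line was a single clone. RING1B peaks also had to be found in PRC1CKO cells, whose RING1B libraries are not among the 118 samples and were not analysed here. Each list is 1 set of positions with no height, read depth or replicate value, so no spread between cultures could be given and no test was run. The intervals below cover the counting of peaks only and treat peaks as independent.

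RING1B is the E3 ligase subunit shared by Polycomb repressive complex 1 (PRC1) assemblies, which place ubiquitin on histone H2A. SUZ12 is a core subunit of PRC2, the complex that methylates histone H3 on lysine 27. PCGF2 is a core part of canonical PRC1 in ESCs, which reads that methylation through its CBX subunits. Canonical PRC1 can also form with PCGF4, and variant complexes can also hold PCGF2. Variant PRC1 complexes instead reach DNA through partners such as KDM2B, which binds unmethylated CpG-rich DNA, or MGA and MAX, which bind E-box motifs. In ESCs the best-known Polycomb sites are CpG island promoters of silent developmental genes. Sites away from promoters and without a called PCGF2 peak are thus the less familiar part of the RING1B list.

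The sites ranged from dense CpG islands to DNA with few CpGs, and the sequences below show that range before the values. Each is the 200 bp window with the most CpGs that lies within a site and outside annotated exons, on the plus strand of GRCm38 (mm10), 5′ to 3′, with each CpG dinucleotide in capitals. The first is from the site with the highest CpG observed/expected, a ratio explained below, among sites of at least 1 kb. It lies in an intron of Camta1, at chr4:151107653-151107852, with 35 CpGs in the window.
Camta1 intron: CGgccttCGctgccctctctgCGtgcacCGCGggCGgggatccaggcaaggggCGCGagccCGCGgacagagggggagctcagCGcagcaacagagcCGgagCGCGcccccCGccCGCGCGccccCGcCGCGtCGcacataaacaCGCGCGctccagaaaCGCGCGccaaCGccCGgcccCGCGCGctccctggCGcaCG
The second is from the site with the next highest ratio, in Snx20, at chr8:88627871-88628070. The midpoint of this site lies in coding sequence, and its richest window outside exons held 14 CpGs.
Snx20: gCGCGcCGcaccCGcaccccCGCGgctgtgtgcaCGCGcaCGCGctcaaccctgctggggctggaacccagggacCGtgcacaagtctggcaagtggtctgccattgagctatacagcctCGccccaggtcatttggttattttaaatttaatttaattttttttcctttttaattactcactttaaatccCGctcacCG
The third is from an intergenic site 20.6 kb from Mir30d, at chr15:68362869-68363068. With 49 CpGs and 87.5% GC, it was the densest of the windows shown.
Mir30d neighbour: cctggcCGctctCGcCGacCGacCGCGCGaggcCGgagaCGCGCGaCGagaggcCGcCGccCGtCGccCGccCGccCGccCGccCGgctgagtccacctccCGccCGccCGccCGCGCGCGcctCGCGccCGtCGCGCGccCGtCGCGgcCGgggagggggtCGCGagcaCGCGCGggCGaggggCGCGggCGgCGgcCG
The next pair belongs to the 2 widest sites. The window at chr11:120305334-120305533, within a site of 14.8 kb between genes, held 26 CpGs, and the window at chr11:107979569-107979768, in an intron of Prkca, held 13.
Widest site: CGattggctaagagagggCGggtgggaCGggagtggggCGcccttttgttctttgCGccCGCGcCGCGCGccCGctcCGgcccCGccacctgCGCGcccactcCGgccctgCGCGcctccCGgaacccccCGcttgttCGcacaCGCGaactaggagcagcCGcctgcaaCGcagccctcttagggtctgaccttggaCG
Prkca intron: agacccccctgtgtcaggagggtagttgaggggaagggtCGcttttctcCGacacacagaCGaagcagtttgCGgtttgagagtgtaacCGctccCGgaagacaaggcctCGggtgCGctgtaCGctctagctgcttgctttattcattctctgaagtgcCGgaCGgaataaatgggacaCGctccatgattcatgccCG
The last pair shows ordinary members. The window at chr4:106827988-106828187 is from a site at the median CpG observed/expected, 21.9 kb from Acot11, and held 25 CpGs. The window at chr11:95128654-95128853 is from a site at the 10th percentile, 8.10 kb from the homeobox gene Dlx3, and held 8 CpGs.
Acot11 neighbour, median: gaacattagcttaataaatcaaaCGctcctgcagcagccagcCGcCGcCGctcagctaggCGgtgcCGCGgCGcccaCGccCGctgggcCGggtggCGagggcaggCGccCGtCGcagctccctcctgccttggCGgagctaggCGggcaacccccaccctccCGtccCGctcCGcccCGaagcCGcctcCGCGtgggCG
Dlx3 neighbour, 10th percentile: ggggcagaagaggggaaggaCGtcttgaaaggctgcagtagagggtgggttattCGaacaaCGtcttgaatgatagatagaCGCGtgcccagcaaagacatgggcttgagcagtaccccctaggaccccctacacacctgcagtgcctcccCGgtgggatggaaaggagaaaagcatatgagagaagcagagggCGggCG
A site at the median thus still held a short stretch nearly as rich in CpGs as that of the widest site, whereas the Dlx3 neighbour did not.

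The 999 sites stood between the other classes in CpG content. CpG observed/expected compares the CpGs present with the number that the C and G content would give if the bases were in random order. It was measured in the same 1 kb around each peak midpoint, whatever the peak width. In peaks narrower than 1 kb, 170 of the sites and 2682 of the peaks with neither protein, the window took in sequence outside the peak. Its median over the sites was 0.49 (interquartile range 0.38 to 0.60, n = 999). The median was 0.34 at non-promoter peaks with neither SUZ12 nor PCGF2, and the sites were higher by 0.14 (95% Price-Bonett interval of the difference 0.14 to 0.15), with the same direction on 19 of 19 autosomes. Non-promoter peaks with SUZ12 and PCGF2 had a median of 0.59, and the difference, the sites minus these peaks, was -0.11 (-0.14 to -0.08), again on 19 of 19 autosomes. Promoter peaks with SUZ12 and without PCGF2 had the highest median, 0.68, and the difference of the sites from them was -0.20 (-0.21 to -0.18). The GC content followed the same order, with medians of 51.3% at peaks with neither, 55.1% at the sites, 57.8% at non-promoter peaks with all 3 proteins and 61.0% at the promoter peaks. Each class spread widely, and the site values ran from 0.04 to 1.14, so the classes overlapped.

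The lower value of the sites than of the non-promoter peaks with PCGF2 held in fixed windows around the midpoint and not over whole peaks. Over whole peaks the medians of CpG observed/expected were 0.45 at the sites and 0.44 at non-promoter peaks with SUZ12 and PCGF2, and the interval of the difference, -0.01 to 0.02, included 0. The whole-peak difference from peaks with neither remained, at 0.10 (0.09 to 0.11), as did that from the promoter peaks, at -0.17 (-0.18 to -0.15).

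**Figure D1:**
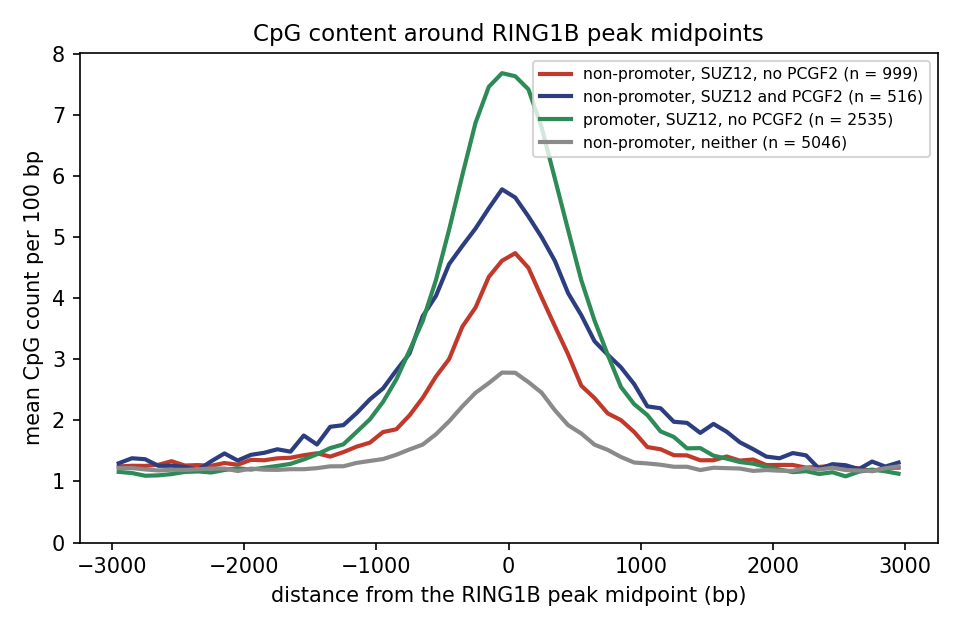
Mean number of CpG dinucleotides per 100 bp bin (y axis) against distance from the RING1B peak midpoint in bp (x axis), with 1 line for each class of peaks. In the bin just right of the midpoint the 999 sites averaged 4.74 CpGs, peaks with neither SUZ12 nor PCGF2 averaged 2.78, non-promoter peaks with both averaged 5.65 and promoter peaks without PCGF2 averaged 7.63, and all 4 lines lay between 1.16 and 1.30 at the left edge.

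Most sites contained a short CpG island. A window of 200 bp with at least 50% GC and a CpG observed/expected of at least 0.6 lay wholly inside 925 of the 999 sites, 92.6% (90.8 to 94.1). Places of the same widths 100 kb downstream of the sites gave 16.6%, over the 881 that met no RING1B peak. Over all 18643 RING1B peaks the share was 85.3%, and over the non-promoter peaks with neither protein it was 54.97%. The sites were therefore 37.6 percentage points above the latter (95% Newcombe interval 35.4 to 39.6), and higher on 19 of 19 autosomes. Non-promoter peaks with PCGF2 and promoter peaks without it were both at 98.8%. The difference of the sites from the former was -6.25 percentage points (-8.14 to -4.25). It was -0.23 (-2.47 to 2.20) when a PCGF2 peak within 5 kb counted as PCGF2, which moved such sites into that class. A stricter window of 500 bp, with at least 55% GC and an observed/expected of at least 0.65, separated the classes further. It lay in 506 sites, 50.7% (47.6 to 53.7), beside 61.7% of all RING1B peaks, 87.2% of non-promoter peaks with PCGF2, 86.7% of the promoter peaks and 9.18% of peaks with neither. About as many sites had such an island as lacked one.

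Wider peaks have more room for an island, so the classes were also compared among peaks of like width. Among peaks of 1 to 1.5 kb the strict window lay in 50.4% of the 226 sites and 11.96% of the 1087 peaks with neither. Among peaks of 2 to 3 kb it lay in 55.4% of the 249 sites, 85.0% of the 113 non-promoter peaks with PCGF2 and 17.3% of the 451 peaks with neither. In the same bin the median CpG observed/expected in 1 kb was 0.49 at the sites, 0.62 with PCGF2 and 0.33 with neither. The 30 peaks with PCGF2 between 1.5 and 2 kb were nearer to the sites, at 0.52 beside 0.52.

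**Figure D2:**
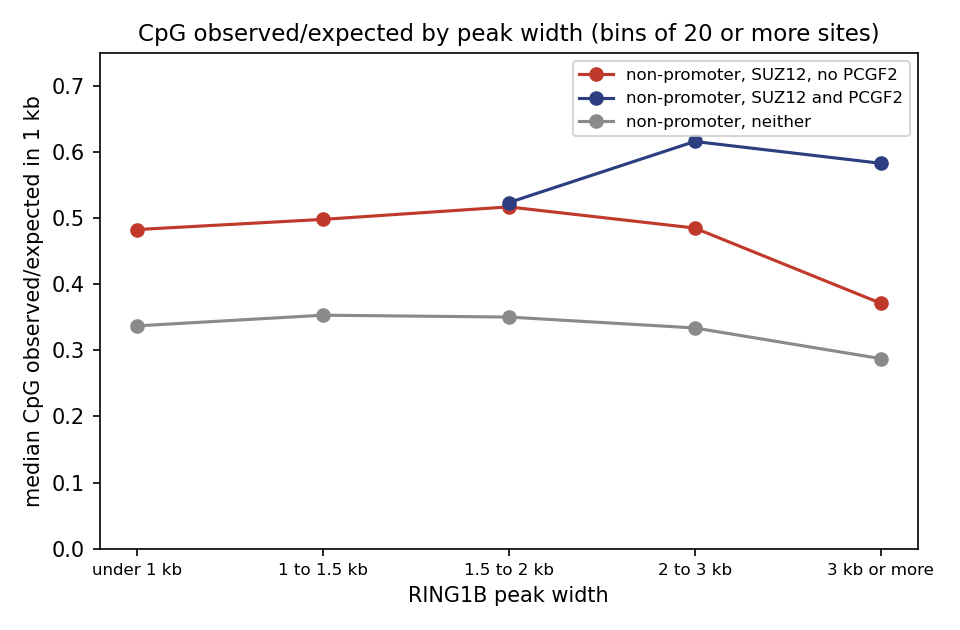
Median CpG observed/expected in the 1 kb around the midpoint (y axis) for non-promoter RING1B peaks in 5 bins of peak width (x axis), with 1 line for each class and only bins of 20 or more peaks. The sites ran from 0.48 under 1 kb to 0.37 at 3 kb or more and lay above the peaks with neither protein, which ran from 0.34 to 0.29, in every bin. The peaks with SUZ12 and PCGF2 lay at 0.52, 0.62 and 0.58 in the 3 bins shown.

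The 5 sites of at least 1 kb with the highest CpG observed/expected included the sites in Camta1 and Snx20 and the site near Mir30d shown above, at 1.14, 1.11 and 1.09. CAMTA1 is a calmodulin-binding transcription activator and SNX20 a sorting nexin. The Camta1 site, chr4:151106836-151109555, was 2720 bp wide, and 59.0% of it lay under SUZ12. A predicted RefSeq TSS of Camta1 fell within it, although the nearest curated TSS was 17.3 kb away. The fifth of these sites, chr7:127252925-127255972, lay in the coding sequence of the zinc finger gene Zfp771, at 1.05. All 5 held the strict island window, and their nearest PCGF2 peaks were between 103.1 and 885 kb away.

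Within single sites, the part under SUZ12 was the richer in CpGs. In the 561 sites with at least 200 bp both under and outside SUZ12, the median CpG observed/expected was 0.46 under it and 0.32 outside it. It was higher under SUZ12 in 421 of them, 75.04% (71.3 to 78.4), with a median difference within a site of 0.13 (0.12 to 0.15). CpG density was highest near peak midpoints in every class, and the part of that profile in this difference was not tested.

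The sites were narrower than the non-promoter peaks with PCGF2 and the promoter peaks with SUZ12, and wider than non-promoter peaks with neither protein. Since a wider peak is more likely to meet a peak of another list, these widths are a description. The median was 1710 bp (interquartile range 1209 to 2472), from 174 to 14848 bp. It was 3825 bp at non-promoter peaks with PCGF2, 1932 bp at promoter peaks without PCGF2 and 952 bp at peaks with neither. Among peaks of at least 1 kb the median of the sites minus that of the promoter peaks was -92 bp, with an interval from -185 to 0.96 that included 0. In total the sites covered 2001.9 kb, 4.57% of the sequence under RING1B peaks.

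**Figure D3:**
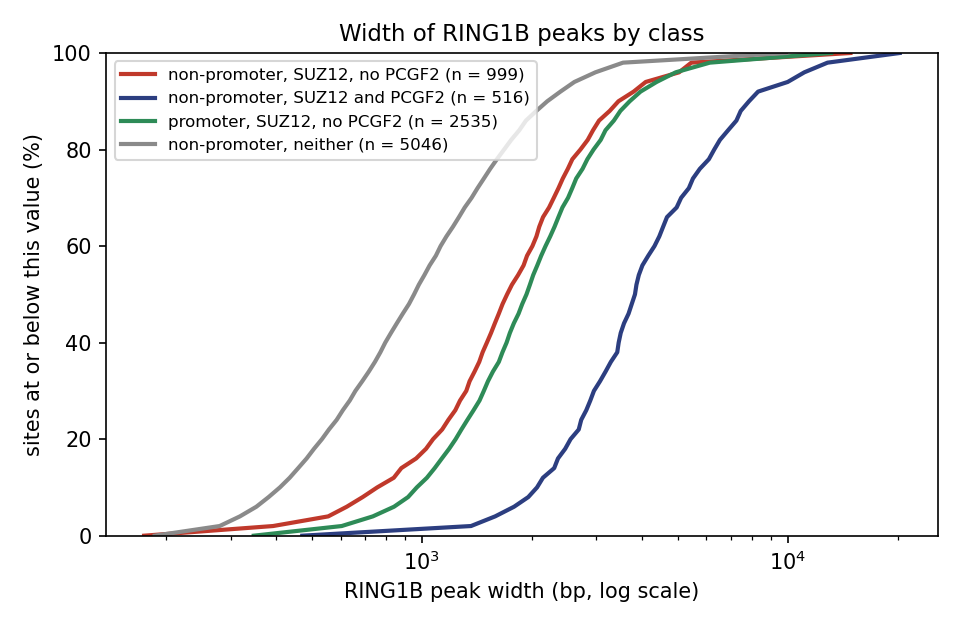
Share of peaks at or below a given width (y axis, percent) against RING1B peak width in bp on a log scale (x axis), with 1 curve for each class. The curve of the 999 sites crosses 50% at 1710 bp, just left of the promoter peaks at 1932 bp, between the peaks with neither protein at 952 bp and the non-promoter peaks with PCGF2 at 3825 bp.

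The 8 widest sites lay between genes, in introns, in an exon and in a 3′ UTR. The widest, chr11:120303196-120318043, was an intergenic site of 14848 bp, of which SUZ12 covered 24.9%, and its nearest protein-coding TSS was that of Actg1, a cytoplasmic actin, 30.4 kb away. The next, chr11:107979066-107987018, was 7953 bp in an intron of Prkca, the gene of protein kinase C alpha, with SUZ12 over 31.3%. The third lay 4.27 kb from Otx2, a homeobox gene of head development, at chr14:48650949-48658466, with SUZ12 over 75.8% of its 7518 bp. The others were in the 3′ UTR of Scrt2 (7422 bp), an intron of the syndecan gene Sdc3 (7373 bp), the coding sequence of Obsl1 (7131 bp), between genes near the ammonium transporter gene Rhbg (6800 bp), and in an intron of the methylcytosine dioxygenase gene Tet3 (6624 bp). CpG content varied among these wide sites. The Otx2 site and the widest site had CpG observed/expected values of 0.57 and 0.55 at their midpoints, the Scrt2 and Prkca sites 0.39 and 0.32, and the Rhbg, Sdc3, Obsl1 and Tet3 sites 0.15, 0.19, 0.25 and 0.25. The strict island window lay in 5 of the 8. SUZ12 cover also varied among these 8, from 24.9% to 93.6% at Obsl1.

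Coding sequence was the setting in which the sites differed most from peaks with neither protein. The midpoint lay in a coding exon in 184 sites, 18.4% (16.1 to 20.9), beside 6.78% of peaks with neither, a difference of 11.6 percentage points (9.25 to 14.2) seen on 18 of 19 autosomes. Non-promoter peaks with PCGF2 were at 19.2%, and the interval of that difference, -5.05 to 3.28 percentage points, included 0. Introns held 248 sites (24.8%), 3′ UTRs 30, non-coding exons 6 and 5′ UTRs 4, while 527 sites (52.8%) lay between genes. Over all RING1B peaks, promoter peaks included, coding sequence took 12.9%, introns 33.4% and the space between genes 37.5%. Altogether 472 sites, 47.2% (44.2 to 50.4), had a midpoint within a curated gene, 8.94 percentage points more than peaks with neither (5.58 to 12.3). Non-promoter peaks with PCGF2 were at 44.8%, and the interval of that difference, -2.82 to 7.73 percentage points, included 0. The share was 40.2% over all non-promoter RING1B peaks and 62.5% over all RING1B peaks.

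The sites in coding exons were also the richest in CpGs of the larger groups. Their median CpG observed/expected was 0.58, beside 0.47 in introns and 0.47 between genes, and 136 of the 184, 73.9%, held the strict island window, beside 50.4% of those in introns and 41.6% of those between genes. The GC content around the midpoints had a median of 59.8% in coding exons beside 53.2% between genes, and its part in the island counts was not tested.

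**Figure D4:**
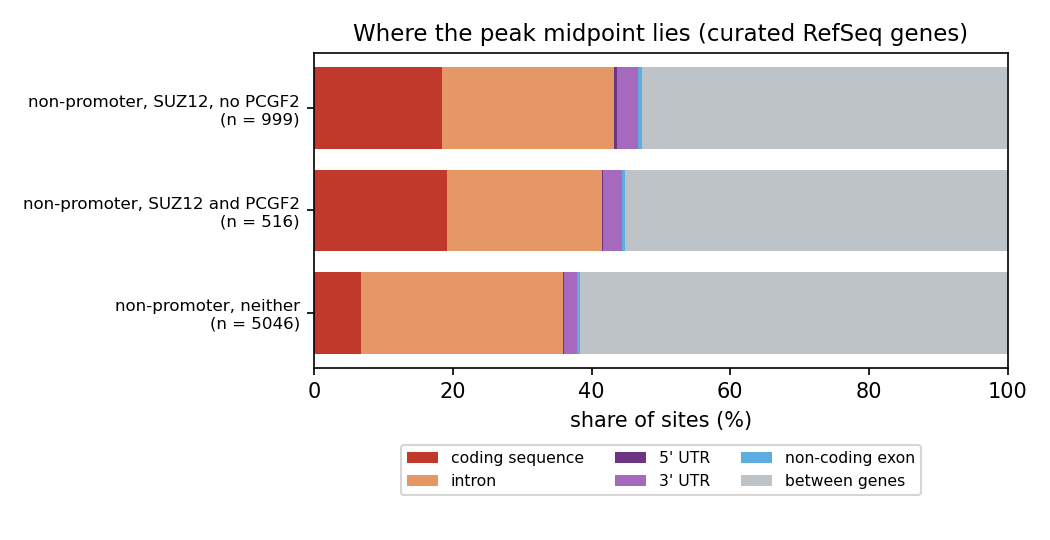
Share of peaks (x axis, percent) by where the midpoint lies in curated RefSeq genes, with 1 stacked bar for each class of non-promoter RING1B peaks. Coding sequence took 18.4% of the 999 sites and 19.2% of the peaks with SUZ12 and PCGF2, against 6.78% of the peaks with neither.

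Site midpoints fell within 424 genes, of which 42 held 2 or more. Bsn, the gene of the presynaptic scaffold protein bassoon, held 4, of which 3 lay in coding sequence as a run of broad peaks, chr9:108104411-108108333, chr9:108108914-108112255 and chr9:108114131-108116731. Each of the 4 Bsn sites lay wholly under SUZ12, and the nearest PCGF2 peak was at least 393.7 kb away. Runx3, a runt-domain transcription factor of neurons and lymphocytes, also held 4 sites, and here PCGF2 was at the gene's own promoter and within 6.55 to 20.4 kb of the sites. SUZ12 covered 100% of one Runx3 site and 5.80% of another.

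The other genes in this list held 3 sites each, or 2 in the case of Apc2, a relative of the tumour suppressor Apc. Ttbk1, a kinase of neurons that phosphorylates tau, held sites of 5128, 3647 and 3820 bp, and the nearest PCGF2 peaks were 142.3 to 159 kb away. Exoc3l2 had all 3 of its sites in coding sequence, and the middle one, chr7:19471674-19476326, reached a CpG observed/expected of 0.98. Ptprs, a receptor tyrosine phosphatase of axons, and Cyp24a1, the enzyme that degrades active vitamin D, had RING1B, SUZ12 and PCGF2 at a promoter. Bsn, Ttbk1 and Apc2 had RING1B and SUZ12 there without PCGF2, and Exoc3l2 and Camta1 had RING1B alone. Sites thus occurred in genes of each of these promoter states.

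The 5 sites farthest from any curated TSS were each over 200 kb away from one. The farthest, chr12:46398418-46399866, was 418.9 kb from Nova1, the gene of a neuronal splicing regulator, and 98.6% of it lay under SUZ12. The next was in the coding sequence of Kif26b, a kinesin family gene, 387.9 kb from its start, at chr1:178916984-178918051. Of the others, 1 in an intron of the splicing regulator gene Rbfox1 and 1 at 308.1 kb from Sh3gl2 lay wholly under SUZ12 and contained a TSS of a predicted transcript, of Rbfox1 and of Adamtsl1. The fifth was 268.1 kb from Erbb4, a neuregulin receptor gene. Their distances to the nearest PCGF2 peak ran from 267.3 to 1323 kb.

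Some sites lay near a TSS that the curated set lacks. With predicted transcripts added, 197 of the 999 sites, 19.7% (17.4 to 22.3), had a TSS within 2500 bp. The share was 17.65% over all non-promoter RING1B peaks, 15.5% at those with neither protein and 34.7% at those with PCGF2. With the GENCODE basic set 236 sites had one, 23.6%, beside 16.6%, 13.9% and 29.65% in the same order. Leaving those 197 out kept 802 sites with a median CpG observed/expected of 0.48. The median distance of the 999 sites to a curated TSS was 16.4 kb, from 2559 bp to 418.9 kb.

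At the 2500 bp limit itself, the 3 nearest members lay in introns of Apc2, Grin2d and Mef2c, at 2559, 2560 and 2564 bp. The 3 nearest excluded peaks lay 2466 bp from Arrdc2, 2450 bp from Selenom and 2433 bp from Mt1. At the SUZ12 limit, the members with the least overlap shared 41, 50 and 56 bp with a SUZ12 peak, near Setd7, Gm2164 and Gprc5c. The excluded peaks with the smallest gap missed one by 14, 18 and 37 bp, and the second of these lay in an intron of Wnt5a. At the PCGF2 limit, the members with the nearest PCGF2 peak, at 674, 727 and 752 bp, lay near Evx1, in Nfix and near Abt1, and the excluded peaks with the least PCGF2 overlap shared 322, 372 and 406 bp. At each limit, members and excluded peaks differed by less than the median width of a site.

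SUZ12 covered most of the typical site. The median share of a site under SUZ12 was 80.6% (interquartile range 54.6 to 97.9, n = 999). It was 98.4% at non-promoter peaks with PCGF2 and 70.8% at promoter peaks without PCGF2. Of the sites, 210 (21.0%) lay wholly under SUZ12 and 782 (78.3%) at least 50%. These shares were 40.1% and 97.1% at non-promoter peaks with PCGF2, and 16.65% and 72.15% at promoter peaks without PCGF2. Where a site met a single SUZ12 peak, as 977 did, the 2 midpoints were a median of 236 bp apart, and 731 pairs lay within 500 bp. The SUZ12 peak had a median of 0.94 times the width of the site.

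Few sites shared their SUZ12 peak with another RING1B peak. In 70 sites, 7.01% (5.58 to 8.76), it did so, and that peak carried PCGF2 in 35 cases and lay at a promoter in 37. The share was 3.88% at non-promoter peaks with PCGF2 and 1.62% at promoter peaks without it. The sites minus the former differed by 3.13 percentage points (0.65 to 5.35), but by 2.47 (-0.04 to 4.76) with the midpoint required under SUZ12. With sites that had a PCGF2 peak within 5 kb moved to the class with PCGF2, the difference was -5.28 (-8.06 to -2.77). Another RING1B peak lay within 5 kb of 353 sites (35.3%), beside 28.5% of all non-promoter peaks and 20.3% of all RING1B peaks. That share was 27.4% at non-promoter peaks with neither protein and 27.3% at those with PCGF2. The median distance was 9244 bp at the sites, 11740 bp at peaks with neither, 13666.5 bp with PCGF2 and 24608 bp at promoter peaks with SUZ12. When RING1B peaks within 1 kb of each other were merged, the share of sites with a shared SUZ12 peak was 1.95%.

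PCGF2 peaks were nearer to these sites than to promoter peaks with SUZ12 and without PCGF2 or to non-promoter peaks with neither protein. The median distance was 71.9 kb over the 997 sites on chromosomes that hold a PCGF2 peak, beside 155582 bp at promoter peaks with SUZ12 and 118858 bp at non-promoter peaks with neither. A PCGF2 peak lay within 10 kb of 158 sites (15.8%), beside 4.81% and 7.47% in those classes. The share within 10 kb was 16.25% over all non-promoter RING1B peaks and 23.7% over all RING1B peaks, both of which include peaks that overlap PCGF2. For 425 sites, 42.5%, the 2 on the Y chromosome included, none lay within 100 kb. A PCGF2 peak lay within 100 kb of 57.5% of the sites, 51.6% of all non-promoter RING1B peaks and 52.5% of all RING1B peaks. The PCGF2 list kept peaks found in each replicate, a different rule from the other lists, and weak PCGF2 signal at a site cannot be seen in positions alone.

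**Figure D5:**
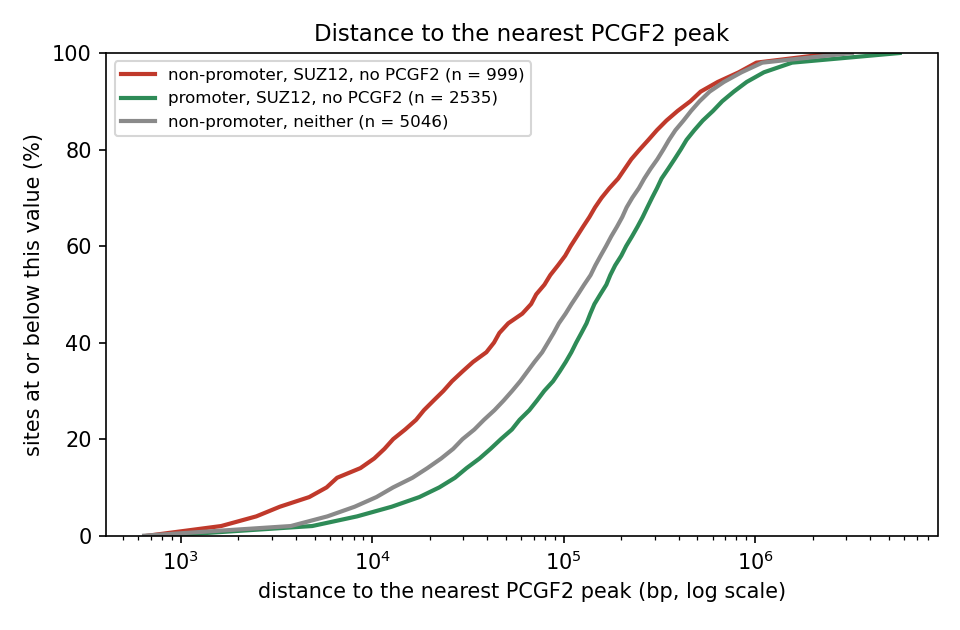
Share of peaks at or below a given distance (y axis, percent) against distance to the nearest PCGF2 peak in bp on a log scale (x axis), for the sites and 2 other classes without PCGF2. The 999 sites (of which 997 have a value) lie left of the others, with 50% reached at 71947 bp against 118858 bp for peaks with neither protein and 155582 bp for promoter peaks with SUZ12.

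A nearest gene with both RING1B and SUZ12 at a promoter, called a Polycomb nearest gene below, was found for fewer sites than not. For 455 sites, 45.6% (42.5 to 48.6), the gene of the nearest curated TSS had both RING1B and SUZ12 at a promoter, and for 308, 30.8% (28.1 to 33.8), it had PCGF2 there. Over all RING1B peaks these shares were 45.1% and 25.7%, and over all non-promoter RING1B peaks 40.5% and 25.3%. Counted per gene and not per peak, 24.5% of all 26180 curated genes had RING1B and SUZ12 at a promoter and 13.5% had PCGF2. At other non-promoter RING1B peaks the shares were 38.7% and 23.0% for peaks with neither protein, below the sites by 6.86 percentage points (3.51 to 10.2) and 7.78 percentage points (4.76 to 10.9). For non-promoter peaks with PCGF2 the share with RING1B and SUZ12 was 48.8%, and the interval of the difference, -8.58 to 2.00 percentage points, included 0. That difference was -13.9 (-19.0 to -8.81) with sites that had a PCGF2 peak within 5 kb moved to the class with PCGF2. It was -6.67 (-12.9 to -0.31) with predicted transcripts counted as promoters. At the same class the share with PCGF2 at the nearest gene's promoter was 36.0%, and the sites differed from it by -5.22 percentage points (-10.3 to -0.24). With the gene holding the midpoint used in place of the nearest TSS, the share of the sites was 53.7%.

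Developmental regulators were among the nearest genes, most clearly in the homeobox group. Homeobox genes specify position and cell type in the embryo. The nearest gene was in this group at 42 sites, 4.2% (3.12 to 5.63), beside 2.31% of all non-promoter RING1B peaks. Matched by RefSeq description, the group also took in Pax7, a paired box gene, and opposite-strand transcripts such as Six3os1. The share was 1.59% at peaks with neither protein, a difference of 2.62 percentage points (1.47 to 4.08), and 5.81% at non-promoter peaks with PCGF2. Of the 30 genes of the group involved, 27 had PCGF2 at a promoter and 29 had RING1B and SUZ12. Of the 881 genes nearest to any site, whatever their group, 255 had PCGF2 at a promoter and 391 had RING1B and SUZ12. The promoter states of all 271 annotated genes of the homeobox group were not counted. Uncx had 3 sites, 36.3 to 55.4 kb from its start, at 0.51 to 0.56 in CpG observed/expected. Pax7, a regulator of muscle and neural crest, had 2, at 9.28 and 18.1 kb, and Dmbx1, of midbrain development, had 2. Six3os1 and Otx2os1, opposite-strand transcripts of Six3 and Otx2, had 3 and 2.

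Other transcription factors and signals were fewer. SOX, FOX, T-box and related factors were nearest to 18 sites (1.80%), beside 1.78% of all non-promoter peaks. Among them, Tbx4 of the hindlimb had sites at 8.65 and 19.2 kb, and Foxd3 of neural crest had sites at 82.5 and 209.8 kb. Sox2, which maintains pluripotency, had a site of 6355 bp, and its promoter carried RING1B without SUZ12. Secreted signals were nearest to 15 sites (1.5%), beside 0.85% of all non-promoter peaks, and Wnt11 had 3 of these sites and Bmp7 had 2.

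Genes of neural connection and of transport made up further small groups. Axon guidance genes, Robo3, Epha8, Epha3, Efnb2 and Sema3f among them, were nearest to 7 sites (0.70%, beside 0.58% of all non-promoter peaks), and all 7 genes had RING1B and SUZ12 at a promoter. Cadherins were nearest to 5 sites (0.50%, beside 0.52%), 2 each for Celsr2 and Cdh22 and 1 for Celsr3. Ion channels and transmitter receptors were nearest to 21 sites (2.10%, beside 1.60% of all non-promoter peaks), including the glutamate receptor genes Grin2d, Grin1, Grin3b and Grm4. Solute carriers were nearest to 13 (1.30% beside 1.75%), of which the 3 assigned to Slc22a7 were the sites in Ttbk1. Of the 11 solute carrier genes, 1 had PCGF2 at a promoter and 4 had RING1B and SUZ12.

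Olfactory and vomeronasal receptor genes and ribosomal protein genes were counted as well. The first were nearest to 6 sites, 0.60% beside 0.44% of all non-promoter peaks, with 2 sites near Vmn1r53, and none of the 5 genes had RING1B and SUZ12 at a promoter. The second were nearest to 7 sites, 0.70% beside 0.70%, including 2 near Rpl11. None of the 6 ribosomal protein genes had RING1B and SUZ12 together at a promoter, but Rpl11, Rpl38, Mrpl58 and Rpl19 had RING1B alone. The intervals of the differences from peaks with neither protein, -0.19 to 0.92 and -0.47 to 0.75 percentage points, included 0.

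Short motifs of factors that bring PRC1 or other regulators to DNA were counted in the 1 kb around each midpoint, on both strands. The E-box CACGTG, bound by MAX and MGA among others, was in 212 sites, 21.2% (18.8 to 23.9), beside 25.4% of all RING1B peaks. It was in 31.5% of peaks with neither SUZ12 nor PCGF2, and the difference of the sites from these was -10.3 percentage points (-13.0 to -7.34), lower on 18 of 19 autosomes. Non-promoter peaks with PCGF2 were at 19.2% and promoter peaks without it at 20.4%, and the intervals of the differences, -2.32 to 6.16 and -2.08 to 3.88 percentage points, included 0. At the 881 places 100 kb downstream of a site that met no RING1B peak it was in 13.4%.

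The E2F-like motif GCGGGA, a sequence that E2F6 of a variant PRC1 complex can bind, ordered the classes as CpG content did. It was in 46.2% of the sites, beside 56.5% of all RING1B peaks, 33.1% of peaks with neither, 55.2% of non-promoter peaks with PCGF2, 69.0% of promoter peaks and 7.38% of downstream places. The motif holds a CpG, as do the E-box and the CTCF letters below, and the part of CpG content in these shares was not tested. The T-box letters AGGTGTGA was in 5.21% of the sites, beside 4.67% of all RING1B peaks and 5.79% downstream. The letters TCAGCACC, part of the RE1 motif of the neural gene repressor REST, were in 7.51%, beside 6.16% and 4.31%. The letters AGGGGGCG, part of the CTCF motif, were in 10.0%, beside 14.4% and 1.14%, and the GA repeat GAGAGAGA was in 12.8%, beside 12.6% and 17.1%. Set against non-promoter peaks with neither protein, the share of the sites differed by -1.97 percentage points (-3.39 to -0.27) for the T-box letters and by -3.04 (-5.23 to -0.62) for the GA repeat. For the CTCF letters the difference was 3.35 (1.495 to 5.47), while the interval for the RE1 letters, -0.23 to 3.31, included 0. These motifs do not contain one another, and a match is a run of letters and not a measured binding site.

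Sites lay on all 19 autosomes and on both sex chromosomes. Chromosome 11 held the most, 93, and chromosomes 4 and 2 held 83 and 81. As a share of the non-promoter peaks of a chromosome they ran from 9.89% on chromosome 19 to 18.9% on chromosome 7 among autosomes, and the X chromosome had 10 of 58. Both RING1B peaks on the Y chromosome were members, of 281 and 755 bp, wholly under SUZ12 and 14.1 kb from G530011O06Rik and Erdr1. Repeats made up 69.2% and 65.5% of the 1 kb around them, beside a median of 9% at all sites. Reads in such sequence can map to several places, and the authors kept uniquely mapped reads.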

How the data were processed

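Per the study's methods, the authors used Bowtie 2 with mm10 and hg19 together as the reference, excluded multi-mapping reads and, with Sambamba, duplicates, and ran MACS2 in broad mode with Input as control. RING1B and SUZ12 peaks had to be found in merged replicates of both untreated lines, and PCGF2 peaks in every PRC1CPM replicate. RING1B peaks without a significant loss on tamoxifen in PRC1CKO cells were removed, as were blacklisted peaks. The deposited values are peak starts and ends in base pairs. They give no depth.

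Peaks were classed by overlap of at least 1 bp and by curated RefSeq TSSs on GRCm38.p6, with coordinates from base 1. Sequence was read from the same assembly, and repeats are its lower-case bases. Shares were given with 95% Wilson intervals, their differences with Newcombe intervals, and medians with Price-Bonett intervals. Gene groups were matched to RefSeq descriptions.

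Members, lists and the rules for named sites (widest, farthest from a TSS, CpG-richest, nearest to each limit), host genes (most sites) and nearest genes (most sites per group) were chosen with earlier results of these data known. The sites nearest to PCGF2 and those on the Y chromosome were named after their values were seen. Interval and overlap code was tested on simulated data. The tools were Python 3.11.15 with SciPy 1.17.1 and NumPy 2.4.6, pandas 2.3.3 and, for plots, matplotlib 3.10.9.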

Additional observations from a re-analysis of the deposited data

How the results depend on the processing

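The main values of the sites were recomputed under 17 alternative settings, of which the GENCODE promoters and the nearest protein-coding TSS were chosen after seeing the data. Of 97 recomputed values, 70 lay within the interval of the reported value, or within 1.5 times the reported count, and the number of sites ran from 782 to 1072. Of 208 recomputed differences from other classes, 200 kept their direction and the side of 0 on which their interval lay, or had intervals that included 0 both times. With at least 50% of a peak under SUZ12, the median width was 1609 bp, CpG observed/expected 0.50 and the SUZ12 share 89.5%, and with the midpoint under SUZ12 the latter 2 were 0.49 and 86.6%. With no PCGF2 peak within 5 kb, the island share was 94.6%, the share with a SUZ12 peak shared with another RING1B peak 3.84%, the median distance to PCGF2 86175.5 bp and the share with a Polycomb nearest gene 41.1%. With TSSs plus or minus 5000 bp the shared SUZ12 peaks came to 5.48%. With peaks of at least 1 kb, the median width was 1967 bp, the island share 94.8% and the SUZ12 share 77.4%. With peaks within 1 kb merged, the island share was 94.8% and the shared SUZ12 peaks 1.95%. With GENCODE promoters, CpG observed/expected was 0.48, the share within a gene 52.7%, the SUZ12 share 77.1%, the distance to PCGF2 62511 bp and the Polycomb nearest genes 52.6%. The strict island was in 50.7%. CpG observed/expected was 0.52 in 500 bp, 0.41 in 2 kb and 0.45 over the whole peak. Counting predicted genes, 60.4% of sites lay within a gene, and Polycomb nearest genes were 53.7% by the host gene and 52.1% by protein-coding TSSs.

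The excess of shared SUZ12 peaks over non-promoter peaks with PCGF2, 3.13 percentage points, became -5.28 with no PCGF2 peak within 5 kb and -0.046 with peaks merged, and the whole-peak difference in CpG observed/expected from the same class was 0.00398. The intervals of 3 more differences came to include 0: the same excess with the midpoint under SUZ12, 2.47, the island share against peaks with PCGF2 when none lay within 5 kb, -0.23, and the width against promoter peaks among peaks of at least 1 kb, -92 bp. The interval for Polycomb nearest genes against peaks with PCGF2 no longer included 0 in 2 settings, at -13.9 with none within 5 kb and -6.67 with predicted transcripts. In the 5 kb setting, peaks with PCGF2 that near counted as having PCGF2, so such sites joined the compared class and both sides changed. The causes were not tested. No paired analysis was possible because each list is 1 set of positions with no replicate values, and for the same reason no replicate could be left out.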
